A study of Rattus norvegicus with 35 samples.

Results

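The 10 genes described here are Nfe2, Anp32a, Csnk2a1, Arl6ip6, Cdkn2aip, Dnttip2, Raph1, Eml2, Dbi and Lpgat1, none of which is an enzyme of cholesterol synthesis. They were picked by symbol from 13439 genes measured in rat liver, because their signal differed between ligated rats with and without simvastatin in these same arrays. They were read by 17 of the 31139 probe sets on the array, where a probe set is a group of short oligonucleotides for 1 transcript. 6 of the 10 genes had 1 probe set, Dnttip2 and Lpgat1 had 2 each, Csnk2a1 had 3 and Raph1 had 4. All values are normalized log2 signals, so that a difference of 1 is a 2-fold change, and the brightest probe set of a gene stands for it unless another is named.

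Livers came from 35 rats' samples in 6 groups, 1 Affymetrix array each. Control rats underwent either a sham procedure, in 5 samples called control sham, or bleeding followed by resuscitation, written H/R, in 6 samples called control H/R. Secondary biliary cirrhosis had been induced in all other rats, whose common bile duct was tied and cut 4 weeks earlier. Those without the drug gave 5 samples after the sham procedure (ligated sham) and 6 after bleeding and resuscitation (ligated H/R). In 2 more ligated groups simvastatin, suspended in water, was gavaged daily at 5 mg per kg from 3 days before the procedure to 1 h before it, giving 5 samples called simvastatin sham and 8 called simvastatin H/R. Vitamin K was injected weekly, and gavage of a vehicle to the other ligated rats is not mentioned in the labels. Strain, sex and age are not given in the sources used here. Nothing in the labels ties samples to litters or days, so a p-value here speaks of the spread among these samples, which may be partly technical.

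Simvastatin is a statin, a drug that blocks the mevalonate pathway, from which cells make cholesterol and the isoprenoid tails of small GTPases. When sterol falls in the endoplasmic reticulum, the transcription factor SREBP-2 is released and switches on the genes of sterol synthesis and uptake. The 10 genes are not sterol enzymes by their known roles, although Dbi has been described as responsive to SREBP factors in other settings. Nfe2 encodes the p45 subunit of NF-E2, a blood cell transcription factor of platelet and red cell precursors. Anp32a, Csnk2a1, Cdkn2aip and Dnttip2 encode nuclear and nucleolar proteins, Arl6ip6, Raph1 and Eml2 proteins of membranes and the cytoskeleton, and Dbi and Lpgat1 proteins that carry acyl-CoA or transfer acyl chains.

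The stretch before the start of transcription is shown for 4 of the genes, since a shared sequence is what a reader would look for in genes that moved with a drug acting on SREBP-2. Arl6ip6 and Dbi had higher signal with simvastatin in ligated sham rats, and Eml2 and Lpgat1 had lower signal. Each line gives the 250 bases before the start that the RefSeq promoter table uses in the rat build GRCr8, read 5′ to 3′ in the direction of the gene, with the CCAAT box and its reverse complement ATTGG in capitals. The Arl6ip6 stretch lies at chr3:58099219-58099468 on the plus strand, that of Dbi at chr13:33802619-33802868 on the minus strand, that of Eml2 at chr1:87955674-87955923 on the plus strand and that of Lpgat1 at chr13:105826575-105826824 on the plus strand. For Eml2 this start is the outer end of the annotated gene, whereas it lies 14 bases inside the gene for Dbi, 491 for Arl6ip6 and 1195 for Lpgat1, so the stretches of Arl6ip6 and Lpgat1 lie within the annotated gene.
Arl6ip6: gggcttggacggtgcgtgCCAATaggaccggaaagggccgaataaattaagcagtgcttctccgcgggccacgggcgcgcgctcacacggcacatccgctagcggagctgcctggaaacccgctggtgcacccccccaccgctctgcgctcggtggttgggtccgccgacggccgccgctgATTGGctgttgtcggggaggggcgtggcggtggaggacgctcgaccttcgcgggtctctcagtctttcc
Dbi: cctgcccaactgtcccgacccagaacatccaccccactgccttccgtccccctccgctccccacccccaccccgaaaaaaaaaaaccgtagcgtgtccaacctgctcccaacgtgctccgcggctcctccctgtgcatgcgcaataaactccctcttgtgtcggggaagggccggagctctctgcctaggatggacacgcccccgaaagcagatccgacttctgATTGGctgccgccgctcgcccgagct
Eml2: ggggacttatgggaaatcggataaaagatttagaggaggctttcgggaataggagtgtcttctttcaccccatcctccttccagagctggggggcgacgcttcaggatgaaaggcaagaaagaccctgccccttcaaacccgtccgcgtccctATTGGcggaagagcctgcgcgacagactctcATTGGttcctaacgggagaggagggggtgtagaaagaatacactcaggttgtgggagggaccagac
Lpgat1: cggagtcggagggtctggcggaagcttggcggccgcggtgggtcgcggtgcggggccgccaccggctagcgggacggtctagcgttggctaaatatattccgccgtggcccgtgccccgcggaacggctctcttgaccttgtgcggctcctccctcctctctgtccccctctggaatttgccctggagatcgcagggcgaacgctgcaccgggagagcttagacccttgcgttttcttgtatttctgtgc

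The CCAAT box, bound by the factor NF-Y, was in 5 of the 9 promoters that matched by symbol, over 300 bases that also take in the 50 bases after the start. These were the promoters of Anp32a, Csnk2a1, Arl6ip6, Eml2 and Dbi, and 37.5% of all 33469 rat promoters of that length held it. The classical 10-base sterol regulatory element, a site of SREBP-2, was in 0 of the 9 and in 0.125% of all promoters. The E-box CACGTG was in 0 of the 9 and in 6.42% of all, and TGAGTCA, the core shared by NF-E2 and AP-1 sites, was in 0 of the 9 and in 4.63% of all. Each motif was searched on both strands, and no matches of different motifs overlapped. For Cdkn2aip, counted among the 9, the start used lies 2319 bases inside the annotated gene, so its window lies within that gene. The exact sterol element was likewise in 0 of 15 promoters of known sterol synthesis and SREBP-2 target genes, so its absence says only that these letters were not in these windows.

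In RefSeq's GRCr8 annotation Nfe2 lies at chr7:136261234-136273850, Anp32a at chr8:71724578-71760922, Csnk2a1 at chr3:161170295-161217073, Arl6ip6 at chr3:58098978-58126962 and Cdkn2aip at chr16:51266613-51274051. Dnttip2 lies at chr2:213058975-213071020, Raph1 at chr9:69397272-69484174, Eml2 at chr1:87955924-87987366, Dbi at chr13:33794231-33802632 and Lpgat1 at chr13:105825630-105896366. Dbi and Lpgat1 share a chromosome, as do Csnk2a1 and Arl6ip6, and neither pair is adjacent.

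Markers of hepatocytes matched the labelled tissue, with list means between 12.82 and 13.12 in the 6 groups. Markers of the biliary epithelium averaged 4.82 ± 0.22 (SD, n = 5) in control sham and 8.34 ± 0.44 (n = 5) in ligated sham arrays, and 8.16 ± 0.39 (n = 5) in simvastatin sham arrays. The spike-in difference between the bioD and bioB hybridisation controls lay between 3.11 and 3.29 on control arrays and between 3.43 and 3.93 on arrays of ligated rats, with no overlap. The numbers in the sample titles have endings whose meaning is not stated. The numbers are longer on all simvastatin arrays than on all others, and whether an ending means the same in both is not stated. Ligated sham and simvastatin sham arrays share 0 endings, so that simvastatin and whatever the ending stands for cannot be told apart in sham rats, whereas in H/R rats 2 simvastatin arrays and 2 untreated arrays share 1 ending. Untreated ligated and control arrays also share 0 endings. All 11 control arrays share 1 ending with 3 of the 5 simvastatin sham and 6 of the 8 simvastatin H/R arrays. Differences within the ending shared in H/R rats are given below as descriptions only. There 2 arrays stand against 2, which separate easily, and no share over all genes is given for such a separation. A gene is called not above background in a group where its mean lay at or under the mean brightest nonspecific probe of the same arrays, which was 3.26 to 4.59 by group.

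**Figure D1:**
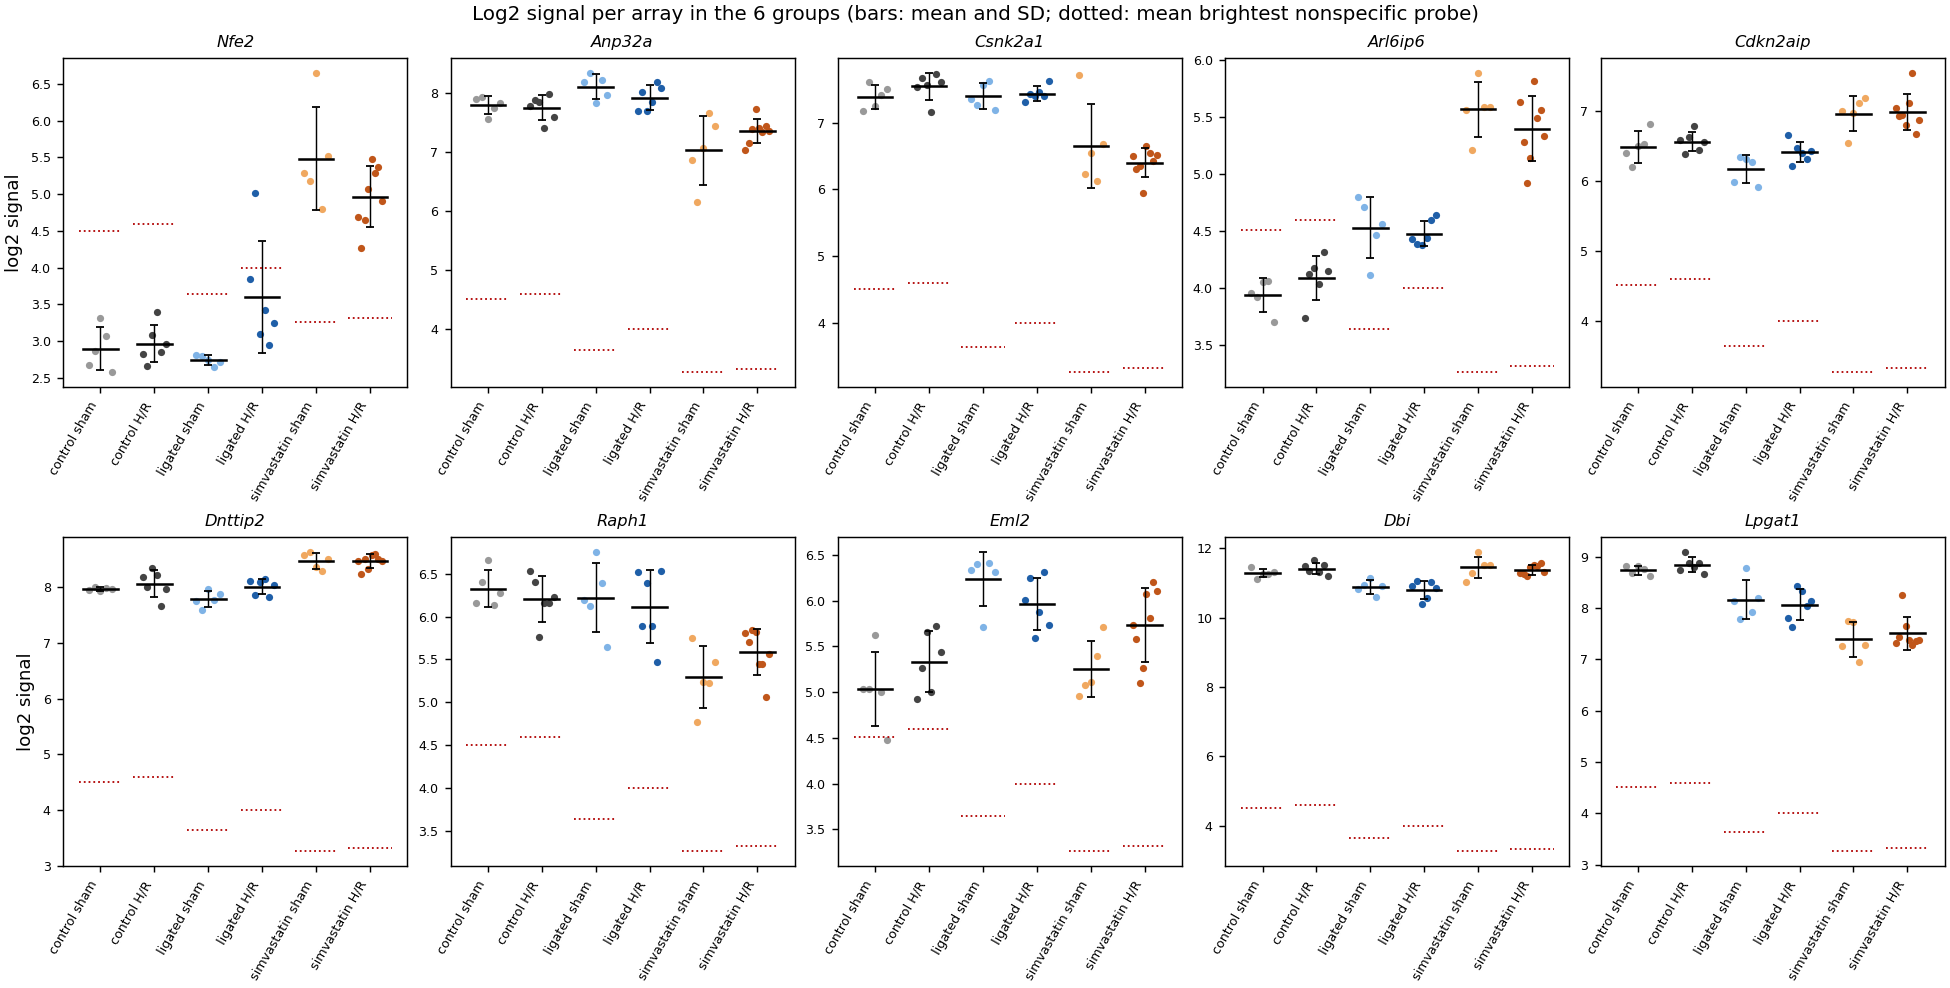
Log2 signal (vertical axes, each with its own range) of the 10 genes on every array of the 6 groups, with the mean and SD as bars and the mean brightest nonspecific probe of the group as a dotted line. Nfe2 lay under the dotted line in all 4 groups without simvastatin by its mean and over it in both simvastatin groups, and Dbi lay lowest in the 2 ligated groups without the drug.

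Simvastatin sham against ligated sham is the comparison in which the 10 genes stood out, so its values are a description and are given with no p-value. All 10 passed an adjusted p of 0.05 there, 5 higher and 5 lower, beside 0.781% of all genes (105 of 13439), 0.632% higher and 0.149% lower. Nfe2, Arl6ip6, Cdkn2aip, Dnttip2 and Dbi had the higher signal with simvastatin, and Anp32a, Csnk2a1, Raph1, Eml2 and Lpgat1 the lower. For 6 of the 10 the groups did not overlap, beside 2.06% of all genes. In simvastatin H/R against ligated H/R, 6 of the 10 passed, 5 higher and 1 lower, beside 1.35% of all genes (182 of 13439), 0.848% higher and 0.506% lower. The groups did not overlap there for 5 of the 10, beside 0.96% of all genes. With only the groups of the comparison in the fit, 2 of the 10 passed in sham rats, and with the number ending as a block, which rests on 2 and 2 arrays, 0 passed in H/R rats. The shares of all genes that passed in these 2 fits are not given, so these counts are not read as a trait of the 10.

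The sterol genes give the scale of the drug's effect in these arrays. Of 18 measured genes of sterol synthesis and SREBP-2 targets, 16 were higher and 0 lower with simvastatin in sham rats, with a median log2 difference of 1.33. In H/R rats 18 of 18 were higher, with a median of 1.66, against medians of -0.01 and -0.00 over all genes. Sqle, which encodes squalene epoxidase, was 2.38-fold higher in sham rats (log2 1.25 ± 0.21 SE) and 3.16-fold higher in H/R rats (log2 1.66 ± 0.18). In sham rats 9 of the 10 genes differed by less than this sterol median in size, from 0.56 for Dbi to 1.08 for Anp32a, whose sign was negative, and Nfe2, with a bound of 1.84, by more.

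Nfe2 showed the widest gap of the 10. Its signal was 2.81, 2.80, 2.75, 2.65 and 2.71 on the ligated sham arrays and 5.29, 5.18, 6.65, 4.80 and 5.51 on the simvastatin sham arrays. Every treated array lay over every untreated one, and the untreated arrays were all at background. Because ligated sham was not above the nonspecific probes, the fold is a bound, at least 3.59-fold, with a fitted log2 difference of 2.74 ± 0.29 (SE).

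After H/R Nfe2 ran from 2.94 to 5.01 with a median of 3.34 on the untreated ligated arrays, and from 4.27 to 5.48 with a median of 4.99 on the simvastatin arrays. The groups overlapped through ligated H/R replicate 2, at 5.01, the only one of the 6 above its own nonspecific probe. The simvastatin difference was at least 1.74-fold (fitted log2 1.37 ± 0.25), and the 2 and 2 arrays that share a number ending did not overlap. Both of the drug's effects on Nfe2 are bounds, so no difference between them is given. Control arrays gave 2.67, 2.86, 3.31, 3.07 and 2.58 after the sham procedure and 2.67 to 3.40 with a median of 2.91 after H/R, all at background.

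By group mean the order for Nfe2 was ligated sham (2.74 ± 0.07 SD), control sham (2.90 ± 0.30), control H/R (2.97 ± 0.25), ligated H/R (3.60 ± 0.76), simvastatin H/R (4.97 ± 0.42) and simvastatin sham (5.48 ± 0.70). The first 4 have no order, as none was above the nonspecific probes. The last 2 overlapped, and their difference did not pass (-0.52 ± 0.26 SE, limma, adjusted p = 0.888). In that comparison 0 of 13439 genes passed.

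Because NF-E2 belongs to blood cells, markers of those cells were read on the same arrays. The mean of 4 red cell markers lay between 3.08 and 3.46 in the 6 groups, with 0 of 4 above the nonspecific probes without simvastatin and 1 of 4, Ahsp, with it. Ahsp was 3.36 in ligated sham and 3.63 in simvastatin sham arrays, but 3.85 in ligated H/R and 3.56 in simvastatin H/R arrays. The nonspecific mean was lower with simvastatin, at 3.26 and 3.32 beside 3.64 and 4.00 in the untreated ligated groups. Alas2, the enzyme that starts heme synthesis in red cell precursors, was above the nonspecific probes in no group. The mean of 4 platelet and megakaryocyte markers was 4.24 ± 0.23 in ligated sham and 4.26 ± 0.18 in simvastatin sham arrays. It was 4.27 ± 0.16 and 4.17 ± 0.08 in ligated H/R and simvastatin H/R arrays. Pf4, a platelet chemokine, was 6.95 ± 0.63 in ligated sham and 7.33 ± 0.60 in simvastatin sham arrays, and 7.20 and 7.28 in the 2 H/R groups. Itga2b, another of the 4, was 4.39 ± 0.21 and 4.21 ± 0.38 in the same sham groups, and 4.15 and 3.90 after H/R. Gp9 and Ppbp, both platelet genes, were not above background in any group. The mean of 4 neutrophil markers was 5.23 ± 0.24 in ligated sham and 6.14 ± 0.98 in simvastatin sham arrays, and 6.59 ± 1.01 and 5.46 ± 0.50 in ligated H/R and simvastatin H/R arrays. Nfe2 was thus higher with simvastatin in both arms, while the neutrophil mean was higher in the sham arm and lower in the H/R arm. None of the red cell, platelet or neutrophil markers passed in either simvastatin comparison, and the part of any of these cells in the Nfe2 values was not tested. Of 3 markers of Kupffer cells and macrophages 0 passed in either comparison, with a list mean of 6.54 ± 0.75 in ligated sham and 7.79 ± 0.47 in simvastatin sham arrays, and of 7.47 ± 0.89 and 6.82 ± 0.81 in ligated H/R and simvastatin H/R arrays. Clec4f, a lectin of Kupffer cells, had means of 6.09 and 8.25 in the 2 sham groups and 7.65 and 6.20 in the 2 H/R groups. Of 4 stellate cell markers 0 passed in sham rats and 1 in H/R rats, Col1a1, a collagen chain, which was lower with simvastatin (log2 -0.92 ± 0.21, limma, adjusted p = 0.0199). The part of these cells in the drug's differences for any of the 10 genes was not tested. In bulk tissue fewer cells of a type and less RNA per cell cannot be told apart.

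Of 6 measured relatives and partners of NF-E2, 0 passed in either simvastatin comparison. Nfe2l2, the regulator of antioxidant genes known as NRF2, was 9.60 in ligated sham and 9.51 in simvastatin sham arrays, a log2 difference of -0.09 ± 0.16.

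Arl6ip6, a membrane protein named for its binding to the small GTPase ARL6, was the next highest with simvastatin. Ligated sham arrays read 4.80, 4.71, 4.11, 4.46 and 4.55 and simvastatin sham arrays 5.56, 5.21, 5.88, 5.58 and 5.59. All 5 treated arrays lay over all 5 untreated ones, 2.05-fold higher by the means (log2 1.04 ± 0.14 SE). After H/R the untreated arrays ran from 4.37 to 4.63 with a median of 4.43 and the treated arrays from 4.92 to 5.82 with a median of 5.41, again with no overlap. That difference was 1.89-fold (log2 0.92 ± 0.12), and 0.98 within the shared number ending, without overlap.

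Arl6ip6 was also among the genes that differed with ligation alone. Control sham arrays read 3.96, 3.92, 4.05, 4.06 and 3.70, all under the ligated sham arrays, and control arrays after H/R ran from 3.74 to 4.31 with a median of 4.13. Control sham was not above the nonspecific probes, so the rise with ligation has a bound of at least 1.02-fold (fitted log2 0.59 ± 0.14, adjusted p = 0.000921). The order by mean was control sham (3.94 ± 0.15 SD), control H/R (4.09 ± 0.19), ligated H/R (4.48 ± 0.11), ligated sham (4.53 ± 0.27), simvastatin H/R (5.39 ± 0.29) and simvastatin sham (5.56 ± 0.24). The arrays of each sham and H/R pair overlapped.

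Cdkn2aip encodes a binding partner of the ARF tumour suppressor, also called CARF. It read 5.99, 6.34, 6.32, 6.27 and 5.91 on ligated sham arrays and 7.01, 6.54, 6.97, 7.11 and 7.19 on simvastatin sham arrays. The groups did not overlap, with simvastatin 1.74-fold higher (log2 0.80 ± 0.14 SE). After H/R untreated arrays ran from 6.21 to 6.65 with a median of 6.42 and treated arrays from 6.67 to 7.55 with a median of 6.94. The highest untreated and the lowest treated array nearly touched, and the difference was 1.49-fold (log2 0.58 ± 0.12) and 0.36 within the shared number ending. Control arrays, at 6.49 ± 0.22 (SD, n = 5) after sham and 6.57 ± 0.14 (n = 6) after H/R, lay between the untreated and treated ligated groups. The order of means was ligated sham (6.17 ± 0.20), ligated H/R (6.41 ± 0.15), control sham, control H/R, simvastatin sham (6.96 ± 0.25) and simvastatin H/R (6.99 ± 0.26), and neighbours in this order overlapped.

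Dnttip2, a nucleolar protein of early ribosome assembly, had the smallest standard errors of the 10. Its brighter probe set read 7.75, 7.59, 7.96, 7.77 and 7.87 on ligated sham and 8.58, 8.63, 8.36, 8.29 and 8.50 on simvastatin sham arrays. The groups did not overlap, and simvastatin was 1.60-fold higher (log2 0.68 ± 0.11). After H/R the untreated arrays ran from 7.82 to 8.15 with a median of 8.06 and the treated ones from 8.23 to 8.60 with a median of 8.49, without overlap, 1.37-fold apart (log2 0.45 ± 0.09). Control arrays averaged 7.97 ± 0.03 after sham and 8.06 ± 0.24 after H/R, and the ligated groups averaged 7.79 ± 0.14 after sham and 8.01 ± 0.14 after H/R. Those 4 groups overlapped, and both simvastatin groups, at 8.47 ± 0.15 and 8.46 ± 0.12, had higher means, although control H/R arrays reached 8.34.

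The other Dnttip2 probe set, 1382119_PM_at, gave a smaller difference. It read 5.29, 5.19, 5.42, 5.09 and 5.28 on ligated sham arrays and 5.62, 5.70, 5.48, 5.45 and 5.38 on simvastatin sham arrays. A treated array lay under the highest untreated one, and the log2 difference was 0.27 ± 0.10 in sham and 0.05 ± 0.09 in H/R rats, neither past the threshold. This probe set fell with ligation (log2 -0.48 ± 0.10 in sham rats, adjusted p = 0.000352, and -0.31 ± 0.10 after H/R, adjusted p = 0.00826), where 42.8% and 42.1% of all 19069 probe sets passed, while the brighter one did not pass there (-0.18 ± 0.11, adjusted p = 0.158, and -0.05 ± 0.10, adjusted p = 0.683). Across the 35 arrays the deviations of the probe sets from their group means correlated at r = 0.52, as a description. The mean of both gave 0.48 ± 0.09 in sham rats and 0.25 ± 0.08 in H/R rats, where it did not pass. Within the shared number ending the difference with simvastatin was 0.31 without overlap for the brighter probe set and -0.02 with overlap for the other.

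Dbi encodes the acyl-CoA binding protein, an abundant carrier of long-chain acyl-CoA in hepatocytes, and was by far the brightest of the 10. Control sham arrays read 11.45, 11.12, 11.27, 11.24 and 11.33, ligated sham arrays 10.82, 10.95, 11.14, 10.59 and 10.91, and simvastatin sham arrays 11.04, 11.28, 11.89, 11.51 and 11.51. Ligated arrays were lower than control arrays apart from 1 at the edge, and all but 1 of the treated arrays were back within or over the control range. Simvastatin sham was 1.48-fold higher than ligated sham (log2 0.56 ± 0.13 SE). After H/R control arrays ran from 11.21 to 11.65 with a median of 11.41, untreated ligated arrays from 10.39 to 11.06 with a median of 10.88 and treated arrays from 11.19 to 11.59 with a median of 11.38. The untreated ligated arrays lay under all others, 1.50-fold under the treated ones (log2 0.59 ± 0.12), and the difference was 0.72 within the shared number ending, without overlap. The order of means was ligated H/R (10.80 ± 0.27 SD), ligated sham (10.88 ± 0.20), control sham (11.28 ± 0.12), simvastatin H/R (11.38 ± 0.14), control H/R (11.42 ± 0.16) and simvastatin sham (11.45 ± 0.32), and the last 4 overlapped.

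Lpgat1, an acyltransferase of the endoplasmic reticulum that acts on lysophosphatidylglycerol, went the other way with the drug. Control sham arrays read 8.82, 8.68, 8.81, 8.77 and 8.62, ligated sham arrays 8.14, 7.79, 8.78, 7.92 and 8.21, and simvastatin sham arrays 7.26, 7.75, 7.73, 6.94 and 7.29. The 3 groups stepped down in that order, with ligated sham replicate 3 at the control level and no overlap between treated and untreated ligated arrays. Simvastatin sham was 1.71-fold lower than ligated sham (log2 -0.77 ± 0.18). After H/R control arrays ran from 8.67 to 9.09 with a median of 8.84, untreated ligated arrays from 7.63 to 8.42 with a median of 8.10 and treated arrays from 7.29 to 8.26 with a median of 7.37. Treated replicate 3, at 8.26, lay among the untreated arrays, and the log2 difference of -0.56 ± 0.15 was not past the threshold over all genes. It was -0.63 within the shared number ending, without overlap.

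Probe set 1397880_PM_at, the dimmer of Lpgat1, read 5.81, 5.02, 6.06, 5.12 and 5.97 on ligated sham and 5.66, 5.61, 5.33, 4.29 and 5.11 on simvastatin sham arrays. The groups overlapped, with log2 differences of -0.40 ± 0.22 in sham and -0.39 ± 0.19 in H/R rats that did not pass. The mean of both gave -0.59 ± 0.18 in sham rats, which did not pass. The deviations of both probe sets from their group means correlated at r = 0.69 over the 35 arrays. Both pointed down with ligation and with the drug. The order of means for the brighter probe set was simvastatin sham (7.39 ± 0.35 SD), simvastatin H/R (7.51 ± 0.32), ligated H/R (8.07 ± 0.30), ligated sham (8.17 ± 0.38), control sham (8.74 ± 0.09) and control H/R (8.84 ± 0.15). Each sham and H/R pair overlapped.

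Eml2, a microtubule-associated protein of the EML family, was the only member with a called rise after ligation and a lower signal with simvastatin. Control sham arrays read 5.03, 5.03, 5.63, 5.00 and 4.47, ligated sham arrays 6.34, 6.41, 5.71, 6.41 and 6.31, and simvastatin sham arrays 4.96, 5.08, 5.12, 5.40 and 5.72. The treated arrays lay mostly within the control range, and 1 of them overlapped the lowest ligated array, replicate 3. Simvastatin sham was 1.98-fold lower than ligated sham (log2 -0.98 ± 0.21 SE). After H/R untreated ligated arrays ran from 5.59 to 6.32 with a median of 5.95 and treated arrays from 5.10 to 6.20 with a median of 5.77, with wide overlap. The log2 difference there was -0.23 ± 0.18 and did not pass, and the difference between the drug's effects in the H/R and sham arms was 0.75 ± 0.28. The order of means was control sham (5.03 ± 0.41 SD), simvastatin sham (5.25 ± 0.30), control H/R (5.33 ± 0.33), simvastatin H/R (5.73 ± 0.40), ligated H/R (5.96 ± 0.29) and ligated sham (6.24 ± 0.30), and each neighbouring pair overlapped.

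Anp32a encodes an acidic nuclear phosphoprotein that inhibits phosphatase 2A and binds histones. It read 8.20, 8.34, 7.84, 8.23 and 7.96 on ligated sham and 6.86, 6.15, 7.07, 7.66 and 7.44 on simvastatin sham arrays. All treated arrays were lower, though spread over a range several times as wide, and the difference was 2.11-fold (log2 -1.08 ± 0.18). After H/R untreated arrays ran from 7.70 to 8.19 with a median of 7.94 and treated arrays from 7.04 to 7.73 with a median of 7.38. They overlapped at the edge, and the difference of -0.56 ± 0.15 did not pass over all genes. It was -0.31 with overlap between the arrays of the shared number ending. Means ran from simvastatin sham (7.03 ± 0.59 SD) and simvastatin H/R (7.36 ± 0.20) to control H/R (7.75 ± 0.21), control sham (7.80 ± 0.15), ligated H/R (7.93 ± 0.21) and ligated sham (8.11 ± 0.21), and neighbours in this order overlapped.

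Csnk2a1 encodes the catalytic alpha subunit of casein kinase 2, a protein kinase active in nearly all cells, and its 3 probe sets disagreed. The brightest, 1384339_PM_s_at, whose suffix marks probes that may match several transcripts, read 7.35, 7.26, 7.57, 7.62 and 7.19 on ligated sham and 7.71, 6.22, 6.54, 6.13 and 6.67 on simvastatin sham arrays. 4 treated arrays lay under all untreated ones, and simvastatin sham replicate 1, at 7.71, lay over them. The difference was 1.67-fold (log2 -0.74 ± 0.18). After H/R untreated arrays ran from 7.31 to 7.63 with a median of 7.42 and treated arrays from 5.94 to 6.65 with a median of 6.46. These groups stood well apart, by 2.05-fold (log2 -1.03 ± 0.15), and by -1.13 within the shared number ending. The 4 groups without the drug had means between 7.39 and 7.55 and overlapped, and the simvastatin means were 6.40 ± 0.22 after H/R and 6.66 ± 0.63 after sham.

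Probe set 1387170_PM_at of Csnk2a1 read 6.63, 6.20, 6.25, 6.60 and 6.89 on ligated sham and 6.15, 6.72, 6.81, 6.32 and 6.57 on simvastatin sham arrays. The groups lay on top of each other, with log2 differences of -0.00 ± 0.15 in sham and 0.03 ± 0.13 after H/R. It fell with ligation in sham rats (log2 -0.36 ± 0.15, adjusted p = 0.0467) and after H/R (log2 -0.47 ± 0.14, adjusted p = 0.00543), where the brightest one did not pass (0.01 ± 0.18, adjusted p = 0.979, and -0.11 ± 0.16, adjusted p = 0.613). The dimmest, 1392650_PM_at, differed by 0.64 ± 0.36 in sham and 0.14 ± 0.31 in H/R rats and was not above background in control arrays. Deviations from the group means correlated at r = -0.27 between the 2 brighter probe sets over the 35 arrays. The mean of the 3 gave -0.03 ± 0.15 in sham and -0.29 ± 0.13 in H/R rats, so the lower Csnk2a1 signal with simvastatin rests on 1 probe set. Where these probe sets lie in the transcript was not analysed here.

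**Figure D2:**
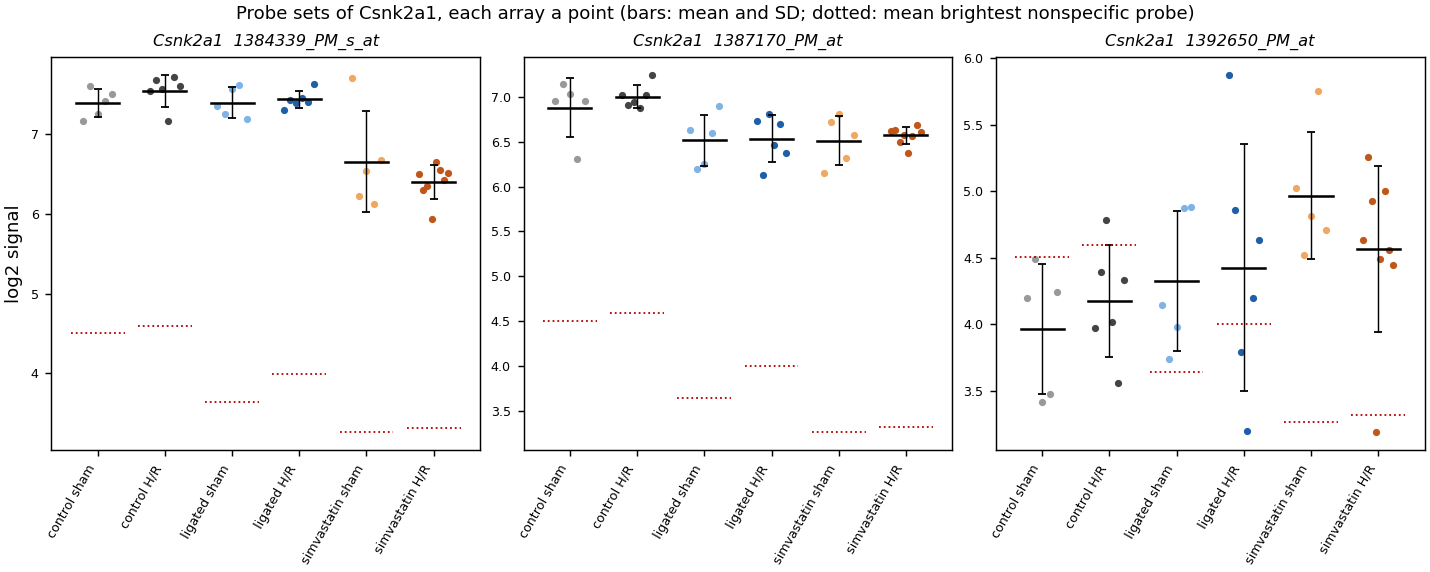
Log2 signal of the 3 Csnk2a1 probe sets on each array of the 6 groups, with the mean and SD as bars and the mean brightest nonspecific probe as a dotted line. The left panel, 1384339_PM_s_at, drops in both simvastatin groups except for 1 array at 7.71, and the middle panel, 1387170_PM_at, is flat across the 4 ligated groups at means of 6.51 to 6.57.

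Raph1 encodes lamellipodin, which recruits Ena/VASP proteins to the leading edge of moving cells. Its brightest probe set read 6.19, 6.12, 6.75, 6.39 and 5.64 on ligated sham and 5.75, 4.77, 5.24, 5.22 and 5.48 on simvastatin sham arrays. The groups overlapped through 1 array on each side, with simvastatin 1.90-fold lower (log2 -0.93 ± 0.20). After H/R untreated arrays ran from 5.48 to 6.54 with a median of 6.14 and treated arrays from 5.07 to 5.85 with a median of 5.64. Most treated arrays fell within the untreated range, and the difference of -0.53 ± 0.17 did not pass over all genes. It was -0.64 within the shared number ending, without overlap. The 4 groups without simvastatin had means from 6.12 ± 0.43 (SD) to 6.33 ± 0.21 and overlapped, and the treated means were 5.29 ± 0.36 and 5.59 ± 0.27.

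The other 3 Raph1 probe sets were dimmer. Probe set 1381748_PM_at, above background in every group, differed by 0.09 ± 0.25 with simvastatin in sham rats and by -0.48 ± 0.22 in H/R rats. Probe set 1385987_PM_at, not above background in control or ligated H/R arrays, differed by -0.41 ± 0.26 in sham rats. Probe set 1374369_PM_at was above background in ligated sham arrays alone, so no difference is given for it. None of the 3 passed in a simvastatin comparison, and the mean of all 4 gave -0.54 ± 0.18 in sham rats, which did not pass either. Correlations of the deviations between the 4 probe sets ran from r = 0.21 to r = 0.58.

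**Figure D3:**
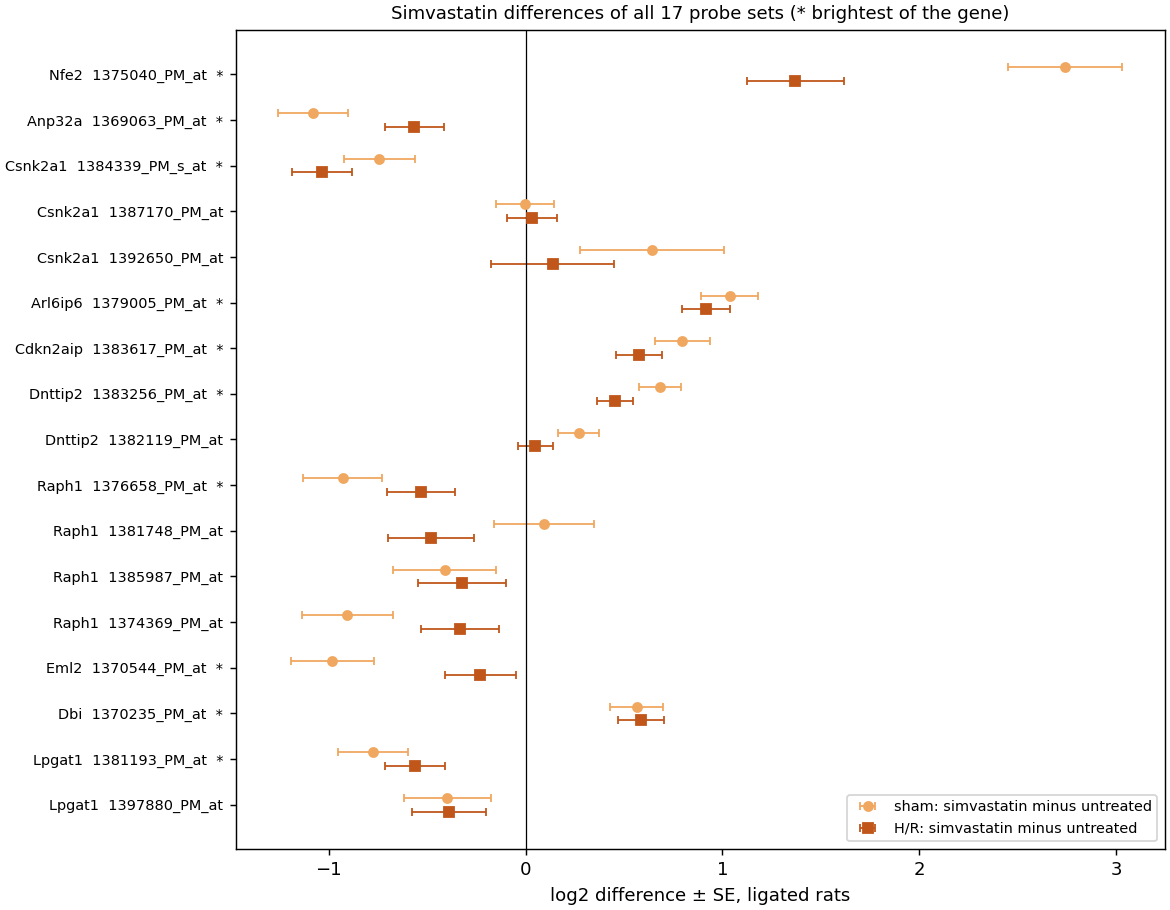
Log2 differences between ligated rats with and without simvastatin (horizontal axis, mean ± SE) for all 17 probe sets, in sham rats (circles) and H/R rats (squares). An asterisk marks the brightest probe set of a gene, and the Csnk2a1 sets lie at -0.74, -0.00 and 0.64 in sham rats. Points are fitted differences, also for Nfe2 and the dim Raph1 sets, where a group was not above background.

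Ligated sham against control sham compares these genes between different rats, all without the drug. This comparison shares its ligated arrays with the choice of the genes, so a gene picked for a gap to treated arrays can start from a high or low ligated value. 4 of the 10 passed, Arl6ip6 and Eml2 higher and Dbi and Lpgat1 lower, beside 47.6% of all genes (25.3% higher, 22.4% lower), a share near the background. Eml2 rose 2.30-fold (log2 1.20 ± 0.21 SE, adjusted p = 1.9e-05) with no overlap. Lpgat1 fell 1.49-fold (log2 -0.57 ± 0.18, adjusted p = 0.00848) and Dbi 1.32-fold (log2 -0.40 ± 0.13, adjusted p = 0.0148), both with overlap, and Dbi did not pass without ligated sham replicate 4 (log2 -0.33 ± 0.14). The groups did not overlap for 2 of the 10, beside 32% of all genes. Of the 6402 genes called here 3394 were higher. With each array centred on its median, 2594 of 7722 called genes were higher and the median of all genes moved from -0.04 to -0.23, and none of the 4 members changed direction.

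Ligated H/R against control H/R uses other arrays than the sham comparison. Its ligated arrays also belong to a simvastatin comparison that may have served in the choice of the genes, so it is not an independent repeat. 5 of the 10 passed, 3 higher and 2 lower, beside 47% of all genes (24.7% higher, 22.3% lower). Lpgat1 fell 1.71-fold (log2 -0.78 ± 0.16, adjusted p = 0.000194) and Dbi fell 1.53-fold (log2 -0.62 ± 0.12, adjusted p = 0.000104), each with every ligated array under every control array. Eml2 rose 1.55-fold (log2 0.63 ± 0.19, adjusted p = 0.00764). Arl6ip6 passed with a fitted 0.39 ± 0.13 (adjusted p = 0.0142) and no fold, because control arrays were not above background. Nfe2 passed at 0.63 ± 0.26 (adjusted p = 0.0495) with neither group above background, and without ligated H/R replicate 2 the difference was 0.35 ± 0.23. The Nfe2 difference failed to pass in 8 of the 12 fits that left out 1 array. The groups did not overlap for 3 of the 10, beside 23.2% of all genes. Here 3314 of 6310 called genes were higher, and 2611 of 7406 with each array centred on its median, which moved the median of all genes from -0.03 to -0.19. Under that centring Arl6ip6 and Nfe2 no longer passed, at 0.23 ± 0.13 and 0.48 ± 0.26.

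By their brightest probe sets, Cdkn2aip (log2 -0.32 ± 0.14 in sham rats, adjusted p = 0.0522), Anp32a (0.32 ± 0.18, adjusted p = 0.141), Dnttip2, Csnk2a1 and Raph1 did not pass with ligation in either arm. A dimmer probe set of Dnttip2 and one of Csnk2a1 fell with ligation, as given above. Raph1 probe set 1381748_PM_at averaged 5.86 ± 0.39 (SD) in control sham and 5.17 ± 0.54 in ligated sham arrays. After H/R its means were 6.06 ± 0.22 in control and 5.76 ± 0.47 in ligated arrays. Cdkn2aip passed in sham rats without control sham replicate 2 (-0.40 ± 0.14) and without ligated sham replicate 2 or 3 (-0.37 ± 0.15 and -0.36 ± 0.15). The biliary markers and the spike-in difference given above moved with ligation on the same arrays. With the spike-in difference as a covariate 1 of the 10, Dbi, passed in each arm, and in sham rats Eml2 was 0.57 ± 0.31, Arl6ip6 0.17 ± 0.21 and Lpgat1 -0.03 ± 0.26. The part of either in these values was not tested. For the fit with the covariate the share of all genes that passed is not given, so its count is not read as a trait of these genes.

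**Figure D4:**
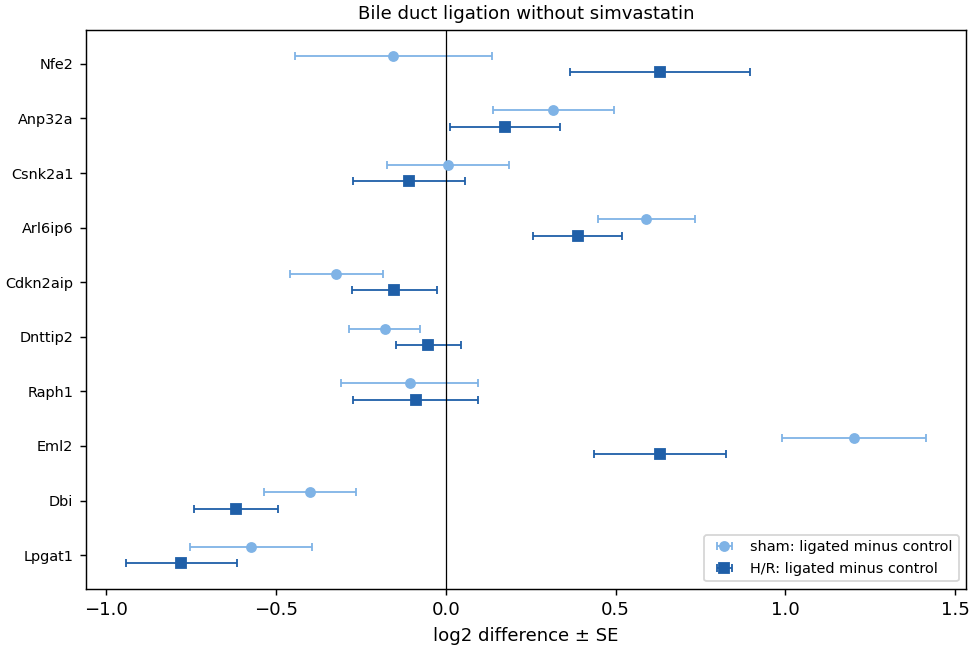
Log2 differences between ligated and control rats without simvastatin (horizontal axis, mean ± SE) for the brightest probe set of the 10 genes, after sham (circles) and after H/R (squares). Eml2 and Arl6ip6 lie to the right of 0 in both arms, at 1.20 and 0.63 and at 0.59 and 0.39, and Dbi and Lpgat1 to the left in both.

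Set side by side, simvastatin and ligation pointed in opposite directions for Dbi and Eml2 in sham rats and in the same direction for Arl6ip6 and Lpgat1. These comparisons share the untreated ligated arrays, so the signs are given as values of each gene only. All control arrays and most treated arrays also share a number ending, which is absent among untreated ligated arrays, and its part was not tested. Dbi was -0.40 with ligation and 0.56 with the drug, Eml2 1.20 and -0.98, Arl6ip6 0.59 and 1.04, and Lpgat1 -0.57 and -0.77. The sterol list had 0 genes higher and 15 of 18 lower with ligation in sham rats, with a median of -0.88, and 18 of 18 lower after H/R, with a median of -0.93.

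None of the 10 genes passed with H/R in control, ligated or simvastatin-treated rats. Control H/R against control sham uses no array of the choice, and 0 of the 10 passed there in limma, beside 0.856% of all genes (115 of 13439). At an unadjusted p under 0.05 there were likewise 0 of the 10, beside 12.2% of all genes (1635). The largest difference was that of Eml2, 0.30 ± 0.20 (adjusted p = 0.597), and no gene of the 10 had separate groups, beside 2% of all genes. In ligated rats 0 of the 10 passed, beside 0.134% of all genes (18), and 2 had an unadjusted p under 0.05, beside 10.4% of all genes (1401). Nfe2 (adjusted p = 0.245) was the only one whose groups did not overlap, beside 1.19% of all genes, and neither of its groups was above background. With simvastatin 0 of the 10 and 0 of 13439 genes (0%) passed, with 2 and 725 (5.39%) at an unadjusted p under 0.05. Both of these ligated comparisons share arrays with the choice of the genes.

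The difference between the drug's effects in H/R and sham rats, again a description for these genes, was 0.75 for Eml2, as given above, and is not given for Nfe2. It was 0.51 ± 0.23 for Anp32a and 0.40 ± 0.27 for the brightest Raph1 probe set, both less negative after H/R. The mean of all Raph1 probe sets gave 0.12 ± 0.23. Dbi (0.02 ± 0.18) and Arl6ip6 (-0.12 ± 0.19) had nearly the same difference in both arms. In limma 0 of the 10 passed, beside 0.00744% of all genes (1 of 13439). At an unadjusted p under 0.05 there were 3 of the 10, Nfe2 among them, beside 4.87% of all genes (654), and nothing is read from this, since the comparisons that chose the genes make up the difference.

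Family members and partners of the 10 genes were read from lists, which were chosen with earlier results of these data known. Of the lists, 1 gene passed in the sham simvastatin comparison, where 0.781% of all genes passed. It was Wdr43, 1 of 15 measured in the nucleolar list, 0.62 ± 0.15 higher. In the H/R simvastatin comparison 3 passed, where 1.35% of all genes passed. Elavl1 was 1 of 3 measured ANP32 relatives and partners (-0.39 ± 0.10). Acsl3 was 1 of 10 in the acyl-CoA list (0.65 ± 0.14) and Mboat7 1 of 12 acyltransferases (-0.34 ± 0.08). These 4 are all that passed in these lists, and they were named after their values were seen. Their number is not read as a trait of the lists. Wdr43 works in the small-subunit processome, Elavl1 (HuR) binds RNA, Acsl3 activates fatty acids at lipid droplets and Mboat7 puts arachidonate into phosphatidylinositol.

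With ligation in sham rats 25.3% of all genes rose and 22.4% fell, and each list's count below stands against these shares. All 8 lamellipodium partners of Raph1 rose, with a median of 0.78 beside -0.04 over all genes, among them Abi1, a subunit of the WAVE complex, by 1.51-fold (log2 0.59 ± 0.12, adjusted p = 0.000151). Enah and Evl, both Ena/VASP proteins, rose from means of 3.18 and 4.37, not above background, to 6.69 and 6.96 (adjusted p = 2.1e-11 and 2.14e-09). After H/R 7 of the 8 rose, beside 24.7% of all genes. Raph1 itself did not pass by its brightest probe set in sham rats, at -0.11 ± 0.20 (adjusted p = 0.692).

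Of 15 nucleolar genes of ribosome assembly 11 fell and 0 rose with ligation in sham rats, with a median of -0.44. Utp6 fell 1.60-fold (log2 -0.68 ± 0.13, adjusted p = 6.9e-05), Bysl 1.54-fold (log2 -0.62 ± 0.16, adjusted p = 0.00156) and Utp14a 1.33-fold (log2 -0.41 ± 0.11, adjusted p = 0.002). All 3 act on the small ribosomal subunit. After H/R 4 of the 15 fell and 1 rose, and 22.3% of all genes fell there.

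Among 10 genes of acyl-CoA binding and activation 3 rose and 5 fell with ligation in sham rats. Tspo, a mitochondrial membrane protein that Dbi's product binds, rose 9.69-fold (log2 3.28 ± 0.38, adjusted p = 1.43e-08). Acsl1, the main acyl-CoA synthetase of liver, fell 4.03-fold (log2 -2.01 ± 0.30, adjusted p = 1.63e-06), and Acsl5 fell 1.80-fold (log2 -0.85 ± 0.18, adjusted p = 0.000202). Of 12 lysophospholipid and glycerol phosphate acyltransferases 4 rose and 3 fell, close to the shares over all genes. Mboat1 rose 4.86-fold (log2 2.28 ± 0.25, adjusted p = 5.28e-09) and Agpat4 2.47-fold (log2 1.31 ± 0.22, adjusted p = 1.35e-05), and Lpcat1 rose from a mean of 3.90, not above background, to 6.25 (adjusted p = 1.04e-09). The 3 relatives of smallest p rose, while Lpgat1 fell, as did 3 of the 12.

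Of 4 measured genes around ARL6, 2 rose and 1 fell with ligation in sham rats. Arl6, a GTPase of cilia, rose 2.25-fold (log2 1.17 ± 0.19, adjusted p = 5.91e-06), Arl6ip5 rose 1.60-fold (log2 0.68 ± 0.15, adjusted p = 0.000367) and Arl6ip4 fell 1.52-fold (log2 -0.60 ± 0.09, adjusted p = 3e-06). Of 5 partners of Cdkn2aip 1 rose, Cdkn2aipnl, its shorter paralog, by 2.90-fold (log2 1.53 ± 0.22, adjusted p = 6.69e-07). Of 6 relatives and partners of NF-E2 2 rose, Nfe2l2 by 1.70-fold (log2 0.77 ± 0.16, adjusted p = 0.000253) and Mafg, a small Maf partner, from a mean of 4.44, not above background, to 5.10 (adjusted p = 0.0106). The other 2 subunits of casein kinase 2, Csnk2a2 and Csnk2b, did not pass (0.08 ± 0.11 and -0.24 ± 0.11, adjusted p = 0.544 and 0.0646). None of 3 ANP32 relatives and partners and none of 3 other EML genes passed in sham rats.

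As a description, the gene whose deviations from the group means over the 35 arrays were most like those of each member was found, with no test and with the arrays' shared quality in common. It was Slco1a1, a hepatocyte uptake transporter, for Lpgat1 (r = 0.87), Aurkb, a mitotic kinase, for Eml2 (r = 0.79), Chchd1, a mitochondrial ribosome protein, for Dbi (r = 0.78) and Cand1, a regulator of cullin ligases, for Dnttip2 (r = 0.78). It was Pdcd4, a translation inhibitor, for Arl6ip6 (r = 0.76), Add1, a cytoskeletal adducin, for Csnk2a1 (r = 0.75) and Usp25, a deubiquitinase, for Cdkn2aip (r = 0.68). For Anp32a it was Ccdc34 (r = 0.64), for Raph1 C17h6orf62-ps1 (r = 0.64) and for Nfe2 Ccl17, a chemokine (r = 0.63). Among the members themselves the highest value was that of Arl6ip6 and Eml2 (r = 0.64) and the lowest that of Eml2 and Lpgat1 (r = -0.51), so within groups they did not vary as 1 block.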

How the data were processed

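Liver RNA of 35 samples in 6 groups was hybridised to single-colour Affymetrix arrays. Per the labels the label was biotin; the extraction text describes only histology, and no source used here names the normalization. The authors deposited normalized log2 signals for 31139 probe sets, whose scale is judged by their range of 1.51 to 13.79 and array medians of 3.97 to 4.29. No 2 arrays were identical (highest correlation 0.992). Of the probe sets 19069 (61.2%) carried 1 gene symbol in the platform annotation, 572 several and 11498 none listed there. A gene was represented by its single-symbol probe set of highest mean.

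Differences were fitted with limma 3.58.1 in R 4.3.3 (lmFit, eBayes), 1 mean per group over all 35 arrays, without covariates, tested on simulated data, with Benjamini-Hochberg adjustment over 13439 genes within a comparison and a threshold of 0.05. Probe sets other than the brightest come from the same fit over 19069 rows. A bound is the brighter mean minus the dim group's mean of, per array, the higher of the brightest nonspecific probe and the gene's own signal. Array data carry no read depth, so the number of arrays limits precision.

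The members and gene lists were chosen with earlier results of these data known. All 10 members were described, and of each partner list up to 3 genes of smallest p that passed in ligated sham against control sham; Sqle was the sterol yardstick. For each member the gene with the highest correlation of deviations from group means was named. Replicate numbers follow sample order. Alternatives were a fit of the compared groups only, trend with robust moderation, array weights, a filter at the 30th percentile, renewed quantile normalization, median centring, the mean of all probe sets, probe sets as rows, the bioD minus bioB signal as a covariate, the number ending as a block, and leaving out each array. Sequences and loci are RefSeq's, in GRCr8.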

Additional observations from a re-analysis of the deposited data

Results flagged for a closer look

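Over the 17 probe sets and 6 groups, 102 groups of values were checked for a sample far from the others, and 6 had one, where chance gives about 1 in 20. The lowest control H/R array of Csnk2a1 probe set 1384339_PM_s_at, replicate 4, read 7.17 with the next at 7.54. Control sham replicate 4 read 6.31 on Csnk2a1 probe set 1387170_PM_at, with the next at 6.95. Simvastatin H/R replicate 4 read 3.19 on the dim Csnk2a1 probe set 1392650_PM_at, with the next at 4.45. Simvastatin H/R replicate 3 stood above its group on 2 genes, at 6.03 on Dnttip2 probe set 1382119_PM_at with the next at 5.63, and at 8.26 on Lpgat1 probe set 1381193_PM_at with the next at 7.64. Ligated sham replicate 3 read 5.71 on Eml2, with the next at 6.31, and was also the highest ligated sham array for Lpgat1, at 8.78. For 0 of the 10 genes did the difference between the drug's effects in H/R and sham rats pass the threshold.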

How the results depend on the processing

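Under 9 alternatives that change the processing no member reversed its direction where it had passed. The count of members past the threshold moved by over 1.5 times in 5 cases. For these fits the share of all genes past the threshold is not given, so a general loss of calls cannot be told apart from one of these genes. In simvastatin sham against ligated sham it was 10, and 2 with only the groups of the comparison. In simvastatin H/R against ligated H/R it was 6, and 0 with the number ending as a block, where the estimate rests on 2 and 2 arrays. With the bioD minus bioB covariate it was 1 in place of 4 for ligation in sham rats and 1 in place of 5 after H/R, where renewed quantile normalization gave 3. Leaving out each array gave 3 to 5 for ligation in sham rats, 4 to 5 after H/R, 7 to 10 for simvastatin in sham rats and 6 to 8 after H/R, and 0 throughout for the 3 H/R comparisons and the difference of the drug's effects. With the mean of all probe sets 7 passed in place of 10 for simvastatin in sham rats, without Csnk2a1, Raph1 and Lpgat1, and 4 in place of 6 after H/R, without Csnk2a1 (-0.29 ± 0.13) and Dnttip2 (0.25 ± 0.08). For ligation after H/R, that is ligated H/R against control H/R, renewed quantile normalization lost Arl6ip6 (0.19 ± 0.13) and Eml2 (0.40 ± 0.19). Cdkn2aip with ligation in sham rats passed with array weights, the filter at the 30th percentile (which removed Nfe2), quantile normalization, centring and the mean of all probe sets, at -0.32 to -0.51, and Dnttip2 there with centring (-0.37 ± 0.12) and the mean of its probe sets (-0.33 ± 0.09). No paired analysis was possible because the labels give no shared replicate numbers. The limits are those of 5 to 8 arrays per group, dim signals for Nfe2 and Arl6ip6, and endings not shared between the sham groups with and without simvastatin.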
